A study of Mus musculus with 69 samples.

Results

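Acute promyelocytic leukemia (APL) cells of 15 mice (Mouse APL) were compared with promyelocytes of 3 young mice that carried the same knock-in but had no leukemia (mCG-PR promyelocytes). These were all 18 samples of both kinds, of 69 samples in the series. All of these animals carried the PML-RARA fusion as a knock-in at Ctsg, the cathepsin G gene, whose locus drove its expression. The leukemias were spleen samples labelled N10, from mice of 238 to 553 days (median 313), each from a different mouse. The promyelocytes were bone marrow cells labelled N22, from mice of 6 weeks, and were sorted as Gr1 intermediate, side scatter intermediate, B220-, CD115- and Ter119- cells. Whether the leukemic spleen cells were sorted was not given in the sources used here. The leukemias were hybridised on arrays numbered 16832 to 16850 and the promyelocytes on arrays 19266 to 19268, so array run, tissue, age, sorting, N number and leukemia cannot be told apart in this comparison. Promyelocytes of 6-week-old wild-type (WT) mice, sorted by the same gate, gave a second reference: replicates 1 to 3 lay in the leukemias' array run (arrays 16838 to 16853) and replicates 4 to 6 in later ones.

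Promyelocytes are the stage at which a myeloid precursor fills its primary granules with enzymes such as myeloperoxidase, cathepsin G and elastase. The secondary and tertiary granules follow in later stages, and receptors of the mature neutrophil come last. PML-RARA joins most of the PML protein to the retinoic acid receptor alpha and represses retinoid targets, and in mice that carry it leukemia appears only after months, with additional mutations. The comparison asked which genes separated the overt leukemia from promyelocytes that already carried the fusion. Whether the leukemic cells were of the same stage was not tested.

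A gene's value was the median of its probesets on the exon array, as linear RMA intensity, where 200 was taken as the level of detection. In all, 117978 probesets of 16088 genes reached 200 in at least 1 of the 18 arrays and were tested with limma. A gene was called when its Benjamini-Hochberg adjusted p was under 0.05 and its change at least 2-fold. By this rule, 713 genes (4.43% of those tested) were called higher in the leukemias and 731 (4.54%) lower. Counts of the gene lists below should be read against these shares. List counts against WT promyelocytes 1 to 3 should be read against 3.06% higher and 2.8% lower. Among probesets, 6455 (5.47%) were higher and 14495 (12.3%) lower. The values of all 15 leukemias lay above all 3 promyelocyte values for 2940 genes (18.3%), and below them for 1206 (7.5%). Over all genes tested the median log2 difference was 0.26, with 0.21 after median centring and 0.30 after a second quantile normalization. Log2 differences below should be read against 0.26. After the centring by gene size described next the median was 0.09, and differences given after that centring should be read against 0.09.

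The samples also differed in a way that followed the size of the genes. In the leukemias, genes with many annotated probesets (over 20) were lower relative to genes with few (up to 8), both well expressed, by a median log2 of -1.20 to -0.38 per array. The same measure was -0.01 to 0.04 in the 3 mCG-PR promyelocyte samples. It was -0.78 and -0.68 in the 2 WT neutrophil samples of the leukemias' array run and 0.23 and 0.25 in the 2 of a later run. In the WT promyelocytes of the leukemias' run it was -0.75, -0.30 and -0.14, and in the later ones -0.19 to 0.00. Genes called higher had a median of 8 annotated probesets and genes called lower 14, against 12 over all genes tested. With each array centred within 6 bins of genes by probeset number, chosen after the data were seen, 356 genes were called higher and 977 lower, of which 354 and 718 were called the same way without the centring. The part of gene size in the single results was not tested, and each result below that is lost under this centring is named.

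**Figure D1:**
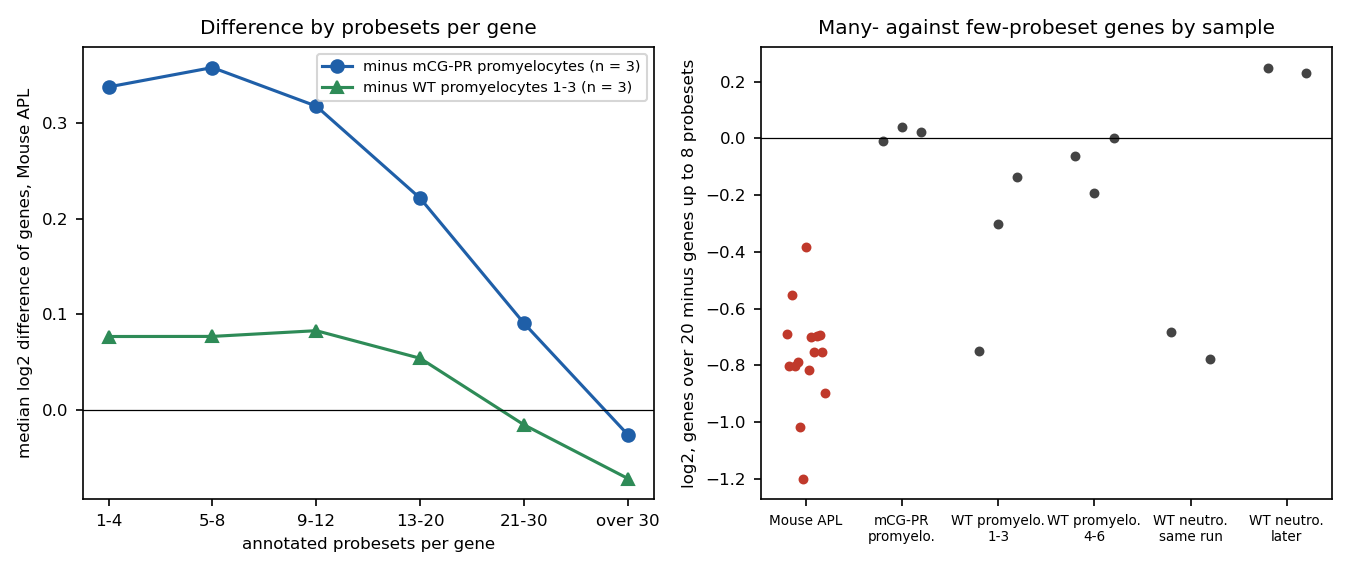
Left, the median log2 difference of genes (y axis) between the 15 leukemias and either reference, by number of annotated probesets per gene (x axis): it fell from 0.34 to -0.03 against mCG-PR promyelocytes and from 0.08 to -0.07 against WT promyelocytes 1 to 3. Right, the median log2 level of genes with over 20 probesets minus that of genes with up to 8, 1 point per sample: the leukemias sit between -1.20 and -0.38, and the 3 mCG-PR promyelocyte samples between -0.01 and 0.04.

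The leukemias resembled each other (Pearson's r over the tested probesets 0.85 or more among 13 of them). Leukemias 9509 and 9514 stood apart, with r of 0.76 to 0.84 to the others and 0.89 to each other. These were also the leukemias lowest by the measure of gene size, at -1.02 (9509) and -1.20 (9514). The part of gene size in their distance from the others was not tested. Among the mCG-PR promyelocytes r was 0.90 to 0.96, and between the groups 0.62 to 0.80. Without leukemias 9509 and 9514, 1446 genes were called in place of 1444. Leaving out promyelocyte replicate 2, which stood apart in several of the genes below, gave 1618. All 18 samples expressed the granule gene Mpo, myeloperoxidase. Its lowest, median and highest values were 5569, 7996 and 10375 in the leukemias, and promyelocyte replicates 1 to 3 gave 8728, 9563 and 8287. The paper lists Mpo as an early gene and reports high Ctsg in earlier myeloid progenitors too, so neither sets the stage. Below, leukemia values are given in the order lowest, median and highest, and promyelocyte values in the order of replicates 1 to 3. Ctsg, whose locus drove the fusion, was 4019, 5000.1 and 5850.5 in the leukemias and 4783, 3848 and 3670.4 in the promyelocytes, a log2 difference of 0.28 (SE 0.11, limma adjusted p = 0.0462) that is close to the median of all genes. Rara and Pml, the partners of the fusion, differed by 0.08 (SE 0.24, limma adjusted p = 0.791) and -0.15 (SE 0.19, limma adjusted p = 0.523).

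Among genes with at least 3 tested probesets, 15 had the largest rises with no overlap between the groups, and all 15 were also called higher against the same-run WT promyelocytes and after the centring by gene size. Of their 127 tested probesets, 117 were called higher and 0 lower. The genes were chosen by the median of these same probesets, so the count is not a separate test. Thbs4, which encodes the matrix protein thrombospondin 4, rose most. Its lowest, median and highest values were 881, 1723 and 3654 in the leukemias, against 67.5, 262 and 61.5 in the mCG-PR promyelocytes and 73.4, 97.1 and 87.2 in the same-run WT promyelocytes (log2 difference 4.06, SE 0.37, limma adjusted p = 3.94e-07). The highest level of Thbs4 was in leukemia 9492 and the lowest in 9514, and of the promyelocytes only replicate 2 passed 200.

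For 12 of the 15 genes every mCG-PR promyelocyte value lay under 200, so that the size of the rise is a lower bound, taken against 200. Olfm4, a neutrophil granule protein, gave 258, 1766 and 3146 in the leukemias and 167, 64.5 and 113 in the mCG-PR promyelocytes, a rise of at least 6.34-fold, limma adjusted p = 7.36e-05. Tnnt1, the troponin T of slow skeletal muscle, gave 221, 1340.5 and 2308 against 87.0, 112 and 93.7, a rise of at least 5.58-fold, limma adjusted p = 7.57e-05. Vcam1, an adhesion molecule for leukocytes that stroma and splenic macrophages express, gave 234, 703 and 1584 against 116, 80.6 and 112, a rise of at least 3.26-fold, limma adjusted p = 2.85e-04. Each of these was detected in all 15 leukemias, with the lowest values in leukemias 9508, 9509 and 9492. Aspa, the enzyme that splits N-acetylaspartate, gave 84.9, 625 and 868 against 21.2, 69.7 and 36.5, a rise of at least 2.74-fold, limma adjusted p = 1.04e-05, and leukemia 9514 was the 1 leukemia with Aspa under 200. Mreg, melanoregulin, which acts in organelle transport, gave 277, 531 and 836 against 68.8, 122 and 87.8, a rise of at least 2.48-fold, limma adjusted p = 1.59e-06.

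Trem3, an activating receptor of myeloid cells, and Timp2, an inhibitor of matrix metalloproteinases, were detected in both groups. Trem3 was the steadiest of the 15 across the leukemias, at 1777, 2344 and 3075, and the promyelocytes gave 450.2, 457 and 461 (log2 difference 2.39, SE 0.15, limma adjusted p = 9.95e-09). Timp2 was 573, 947 and 1469 in the leukemias and 96.6, 252 and 122 in the promyelocytes, with only replicate 2 above 200 (log2 difference 2.67, SE 0.26, limma adjusted p = 8.00e-07). The same-run WT promyelocytes held more Timp2, at 287, 311 and 381, and the log2 difference against them was 1.50 (limma adjusted p = 1.20e-04). Of the remaining rises, Gpt, an alanine transaminase, rose at least 2.41-fold, Dgat2, an enzyme of triglyceride synthesis, at least 1.94-fold, and Prss16, a serine protease known from the thymus, at least 1.51-fold. Ropn1l, 4933437F05Rik, Ccdc154 and the bone morphogenetic protein receptor Bmpr1a had medians of 180.4, 202, 198 and 175 in the leukemias, with 3 to 8 leukemias above 200, and the bounds on their rise were at most 1.08-fold, with none for Bmpr1a. The call of Gpt was lost when all of its probesets entered without the filter on low values (log2 difference 0.45).

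Of the 15 largest falls, several were genes of basophils and mast cells. Of the 118 tested probesets of the 15 genes, 116 were called lower and 0 higher. This count is likewise no separate test, because the genes were chosen by the median of these probesets. Fcer1a, the alpha chain of the high-affinity IgE receptor, gave 6.45, 12.9 and 37.3 in the leukemias and 961, 197 and 1080.3 in the mCG-PR promyelocytes. No leukemia reached 200, and the fall was at least 2.95-fold, limma adjusted p = 1.15e-07. Ms4a2, the beta chain of the same receptor, gave 29.9, 62.5 and 124 against 385, 1075 and 442, a fall of at least 2.84-fold, limma adjusted p = 1.35e-06. Prss34, a protease of basophils and mast cells, gave 44.6, 96.7 and 207 against 1767, 646 and 1979 (log2 difference -3.67, SE 0.38, limma adjusted p = 1.30e-06). Cd200r3, a receptor of basophils and mast cells, fell at least 1.24-fold. In bulk samples such as these, fewer cells of a type and less RNA per cell cannot be told apart. The same-run WT promyelocytes held these genes too, with Fcer1a at 546, 859 and 1546 and Prss34 at 2165, 1501 and 1734.

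Angpt1, angiopoietin 1, a ligand of the Tek receptor, was the largest fall outside those markers and the sex-linked Xist. It gave 25.5, 35.6 and 169 in the leukemias and 936, 411 and 961 in the mCG-PR promyelocytes, a fall of at least 3.59-fold, limma adjusted p = 1.26e-05, and all 12 of its probesets were called lower. The same-run WT promyelocytes, at 895, 576 and 739.6, lay with the mCG-PR promyelocytes, as did the later WT samples, so every one of the 9 sorted promyelocyte samples was above every leukemia. Ccl3, a chemokine, gave 65.8, 157 and 385 against 1124, 2532 and 947 (log2 difference -3.16, SE 0.39, limma adjusted p = 9.16e-06). Rgs1, a regulator of G-protein signalling, gave 26.7, 72.2 and 230.4 against 1121, 1023 and 456 (log2 difference -3.48, SE 0.57, limma adjusted p = 1.18e-04). Met, the receptor of hepatocyte growth factor, gave 8.3, 28.6 and 69.6 against 250.3, 212 and 214 and fell at least 1.12-fold, and its same-run WT values, 90.7, 80.5 and 119, were also under 200. The other falls were Emr4, a receptor of macrophages, Ear6, a ribonuclease of eosinophils, Klrk1, the NKG2D receptor of NK and T cells, the interferon-inducible Ifi203, Grit and 4930538E20Rik. All except Xist were also called lower against the same-run WT promyelocytes. The calls of Emr4 and Ms4a2 were lost when the probeset of the highest mean stood for the gene (log2 differences -0.63 and -0.45).

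**Figure D2:**
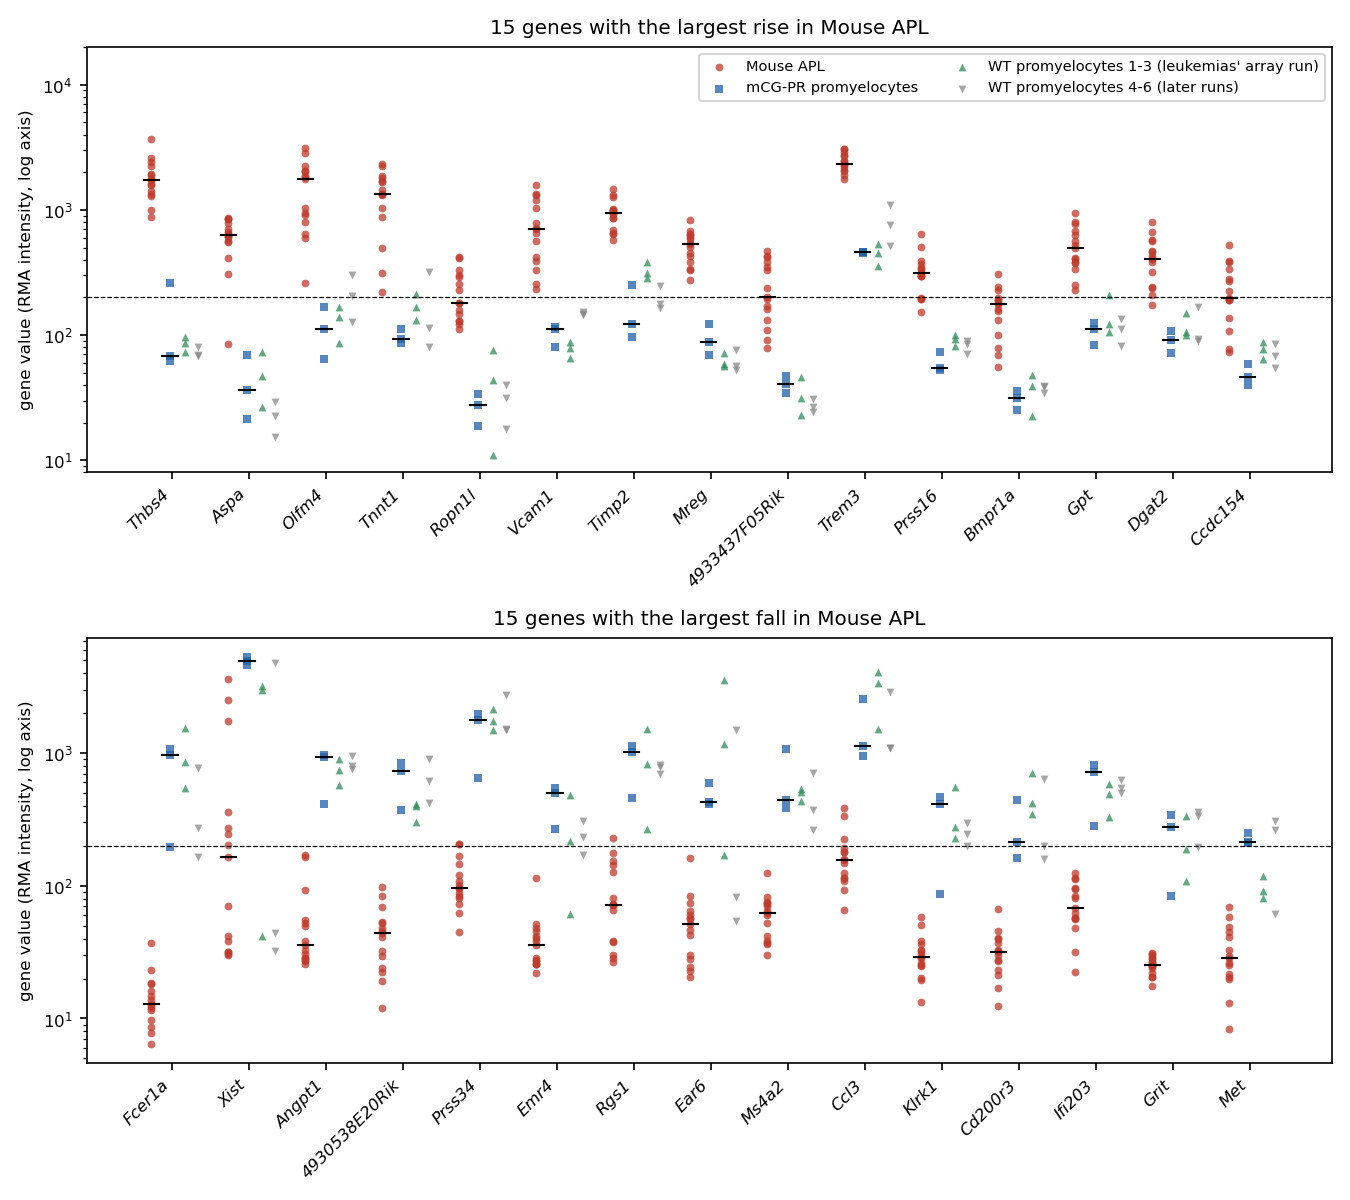
Gene values (RMA intensity, log y axis) of the 15 genes with the largest rise (top) and the 15 with the largest fall (bottom) in each sample of Mouse APL (n = 15), mCG-PR promyelocytes (n = 3), WT promyelocytes 1 to 3 of the leukemias' array run and WT promyelocytes 4 to 6, with the medians of the first 2 groups as short lines and 200 as the dashed line. Every leukemia sits above every mCG-PR promyelocyte sample in the top panel and below in the bottom panel, and Xist is spread from 30.3 to 3590.0 within the leukemias.

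Of 12 tested genes of the primary granules, the contents of the promyelocyte, 0 rose and 2 fell, where 4.54% of all genes were called lower, and their median log2 difference was -0.06. Against the same-run WT promyelocytes 2 were higher and 1 lower, with a median of 0.45. The 2 that fell against the mCG-PR promyelocytes were proteases. They were Gzmb, granzyme B, which NK and T cells also make, and Ctsc, which activates the granule enzymes. Gzmb gave 29.0, 85.2 and 334 against 399.7, 282 and 293 (log2 difference -1.74, SE 0.54, limma adjusted p = 0.0132). Ctsc gave 60.4, 138 and 319 against 396, 234 and 345 (log2 difference -1.23, SE 0.46, limma adjusted p = 0.0311). Both calls depended on single promyelocyte samples. Without replicate 1 neither held, at -1.58 for Gzmb and -1.07 for Ctsc, and without replicate 3 Ctsc was lost too, at -1.17. Ctsc was also lost with the probeset of the highest mean (-0.54) and with an offset of 50 before the log (-0.95). A filter of 200 in at least 3 arrays lost it as well (-1.35). Prtn3, proteinase 3, and Ela2, neutrophil elastase, differed by -0.59 (SE 0.38, limma adjusted p = 0.195) and -0.28 (SE 0.46, limma adjusted p = 0.633). Promyelocyte replicate 2 held the least of both, and without it Prtn3 was called lower (-1.14).

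Among 18 genes of secondary and tertiary granules, 2 rose and 1 fell, with a median log2 difference of 0.59, and against the same-run WT promyelocytes 7 were higher and 0 lower, with a median of 0.38. Besides Olfm4, the other riser was Orm1, the acute-phase glycoprotein orosomucoid, which gave 132, 530.1 and 1022 against 301, 82.6 and 218 (log2 difference 1.46, SE 0.45, limma adjusted p = 0.0116) and was lost without promyelocyte replicate 2, at 0.92. Cybb, the catalytic subunit of the phagocyte NADPH oxidase, fell, at 54.6, 446 and 1473 against 1831, 1185 and 1786 (log2 difference -2.16, SE 0.67, limma adjusted p = 0.0125), a call that was lost without promyelocyte replicate 1 (-2.05) or replicate 3 (-2.06). The leukemias spread over 54.6 to 1473 in this gene. Ltf, lactoferrin, had the same kind of spread, 212, 1035 and 3777 against 3161, 2003 and 2719, and was not called (log2 difference -1.30, SE 0.63, limma adjusted p = 0.0926). Camp, Ngp and Lcn2, which encode abundant proteins of the secondary granule, differed by 0.77, 0.48 and 0.54 on the log2 scale and were not called. With the probeset of the highest mean Camp was called higher (1.06).

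Of 23 tested receptors and enzymes of mature neutrophils, 7 rose and 0 fell, with a median log2 difference of 0.63, and after the centring by gene size 4 rose. Besides Trem3, the steepest was C5ar1, the receptor of complement C5a, which gave 153, 786 and 2309 against 173, 127 and 144, a rise of at least 3.7-fold, limma adjusted p = 0.00212, and passed 200 in 14 of 15 leukemias. Clec4d, a C-type lectin of myeloid cells, gave 166, 587 and 939 against 124, 152 and 149, a rise of at least 2.5-fold, limma adjusted p = 0.00244, and passed 200 in 13. Clec4d and C5ar1 were not called against the same-run WT promyelocytes, where the log2 differences were 1.26 and 1.21 (limma adjusted p = 0.0618 and 0.163). Csf3r, the receptor of granulocyte colony-stimulating factor, gave 224, 467 and 711 against 193, 279 and 169 (log2 difference 1.07, SE 0.28, limma adjusted p = 0.00485) and exceeded the same-run WT promyelocytes by 1.86 (limma adjusted p = 9.41e-05). After the centring by gene size Csf3r (0.84), Ltb4r1 (0.94) and Clec4e (1.23), receptors of neutrophils and other myeloid cells, were no longer called. Csf3r was also lost without promyelocyte replicate 3 (0.91) and without the filter on low values (0.95). With an offset of 50 before the log (0.92) or the probeset of the highest mean (0.31) Csf3r was lost too. Clec4e was lost without promyelocyte replicate 1 (1.13) or 3 (1.42), and Ltb4r1 without the filter on low values (0.83).

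Of 26 tested genes of stem and progenitor cells, 5 fell (Meis1, Cd27, Flt3, Hlf and Sox4) and 0 rose, with a median log2 difference of -0.33, and against the same-run WT promyelocytes 7 were lower and 1 higher. Meis1, a homeobox partner of the Hox proteins, was narrow in the leukemias at 41.8, 53.6 and 65.4 and gave 520.2, 151 and 406 in the promyelocytes, a fall of at least 1.59-fold, limma adjusted p = 2.46e-07. Cd27, a member of the TNF receptor family, gave 66.7, 128 and 244 against 880.0, 366 and 1022 (log2 difference -2.44, SE 0.30, limma adjusted p = 7.73e-06). When the brightest probeset stood for Cd27, its log2 difference was -0.0007 and the call was lost. Hlf, a transcription factor of stem cells, gave 62.9, 80.4 and 159 against 384, 170.1 and 566, a fall of at least 1.67-fold, limma adjusted p = 1.16e-04. Sox4, a transcription factor of progenitors, gave 77.5, 97.4 and 132 against 354, 221 and 287, a fall of at least 1.41-fold, limma adjusted p = 5.04e-07. In all 5, promyelocyte replicate 2 was the lowest of the 3. Among the 21 tested genes of the Hox clusters with Meis and Pbx, Meis1 was the only one called.

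Of 27 cell-cycle genes of DNA replication 2 fell, and of 29 genes of mitosis 3 fell, with medians of -0.27 and -0.41, where 4.54% of all genes were called lower. Pola1, the catalytic subunit of DNA polymerase alpha, gave 87.0, 195 and 257 against 538, 415 and 559 (log2 difference -1.40, SE 0.21, limma adjusted p = 6.19e-05). Top2a, topoisomerase II alpha, gave 388, 702 and 1168 against 1407, 1573 and 1359 (log2 difference -1.13, SE 0.22, limma adjusted p = 6.00e-04), but its brightest probeset gave 0.42, the opposite direction. Kif11 and Cenpe, motor proteins of the spindle, fell, at log2 differences of -1.09 and -1.08. Both were lost without promyelocyte replicate 2 (-0.88 and -0.97) and with the brightest probeset (-0.49 and -0.30). An offset of 50 before the log lost them too (-0.97 and -0.94). Against the same-run WT promyelocytes 0 genes of DNA replication were called in either direction and 3 genes of mitosis were higher. Of 24 genes of ribosome biogenesis and Myc targets, 1 rose (Pes1, read by 1 probeset) and 2 fell (Nol5 and Gnl3). The call of Pes1 was lost without the filter on low values (0.30) and that of Nol5 with the brightest probeset (-0.08). The call of Gnl3 was lost without promyelocyte replicate 1 (-0.92) and without leukemias 9509 and 9514 (-0.99).

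Interferon-stimulated genes formed the list with the most falls among the functions examined. Of 27 tested, 13 fell and 0 rose, with a median log2 difference of -0.98 against 0.26 over all genes. Ifit1, which binds viral RNA and was read by 1 probeset, gave 25.0, 50.2 and 535 against 968, 687 and 318 (log2 difference -3.32, SE 0.71, limma adjusted p = 0.00109). Trim30, an interferon-induced regulator, gave 77.1, 153 and 393 against 1088, 832 and 1040.5 (log2 difference -2.57, SE 0.35, limma adjusted p = 1.95e-05). Ifit2 gave 32.7, 83.9 and 176 against 631, 374 and 601, a fall of at least 2.61-fold, limma adjusted p = 2.85e-05. Zbp1, a sensor of nucleic acids, gave 34.0, 60.5 and 374 against 418, 356 and 399 (log2 difference -2.44, SE 0.58, limma adjusted p = 0.00223), while its brightest probeset gave -0.15. The reference mattered for this list: against the same-run WT promyelocytes 6 of the 27 were lower, with a median of -0.50, and Ifit1 and Trim30 there were 665, 279 and 453 and 304, 353 and 535.

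Antigen presentation and the immediate-early genes gave smaller counts. Of 11 genes of MHC class II presentation 2 fell: Ctss, cathepsin S, gave 212, 434 and 794 against 3812, 1102 and 3995 (log2 difference -2.54, SE 0.37, limma adjusted p = 3.77e-05), and H2-DMa, which loads peptides, gave 61.0, 203 and 287 against 888, 287 and 897 (log2 difference -1.79, SE 0.38, limma adjusted p = 0.00111). The brightest probeset of H2-DMa gave 0.52, the opposite direction. Of 14 genes of MHC class I presentation 1 fell, Erap1, which trims peptides, at 133, 158 and 193 against 415, 413 and 439, a fall of at least 2.11-fold, limma adjusted p = 2.46e-07, and its brightest probeset gave -0.93, which was not called. Of 24 genes of AP-1 and the immediate-early response, 6 fell and 1, Maff, rose. Egr1 gave 179, 254 and 338 against 875, 3027 and 502 (log2 difference -2.14, SE 0.30, limma adjusted p = 3.21e-05). Promyelocyte replicate 2 held the highest Egr1, Egr2, Egr3, Klf6 and Btg2 of the 3, and without it the calls of Egr2 (-0.90), Egr3 (-1.81) and Btg2 (-0.93) were lost. Maff was lost without promyelocyte replicate 1 (1.28). Without the filter on low values the calls of Egr1 (-0.63), Egr3 (-0.52) and Maff (0.01) were lost, and with the brightest probeset those of Egr2 (-0.23), Klf6 (-0.36) and Btg2 (-0.35). Klf6 and Btg2 differed from the same-run WT promyelocytes by only -0.07 and -0.37 on the log2 scale (limma adjusted p = 0.928 and 0.625). Atf3, a stress-induced factor of the same class, gave 55.7, 76.4 and 99.2 against 632, 190.3 and 319, a fall of at least 1.69-fold, limma adjusted p = 1.37e-06, but the same-run WT promyelocytes gave 68.6, 183 and 229.8, of which replicate 1 lay within the leukemias' range.

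Among 25 myeloid transcription factors, 2 rose and 4 fell. Cebpd, which acts in granulocyte differentiation, gave 517, 956 and 2220.0 in the leukemias and 186, 449 and 169.8 in the mCG-PR promyelocytes (log2 difference 2.05, SE 0.36, limma adjusted p = 2.30e-04), with no overlap between the groups. Gfi1, a repressor needed for neutrophils, rose by 1.01 (SE 0.22, limma adjusted p = 0.00106), and by 0.88 after the centring by gene size, under 2-fold. Gfi1 was also lost without promyelocyte replicate 2 (0.95) or any of leukemias 9492, 26, 29, 9520 and 36 (0.97 to 0.998). Irf8, which directs precursors toward monocytes and dendritic cells, gave 56.9, 112 and 189.9 against 635, 378 and 616, a fall of at least 2.64-fold, limma adjusted p = 2.16e-06, and the same-run WT promyelocytes gave 448, 460.2 and 349.7. With the brightest probeset Irf8 was at -0.92 and its call was lost. Runx1 gave 180.5, 395 and 829.8 against 663, 1455 and 646 (log2 difference -1.20, SE 0.35, limma adjusted p = 0.00879). The call of Runx1 was lost without promyelocyte replicate 2, at -0.82, and its brightest probeset gave 0.10. The others that fell were Egr1 and the erythroid factor Gata1, whose call was lost without leukemia 9529 (-0.99) and without the filter on low values (-0.33). Other myeloid factors were not called. Sfpi1, which encodes PU.1, differed by 0.40 (SE 0.26, limma adjusted p = 0.194). Cebpe differed by 0.90 (SE 0.24, limma adjusted p = 0.00512). Cebpe was called higher without promyelocyte replicate 2 (1.15), under array weights (1.08) and with the brightest probeset (1.43).

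Retinoid receptors, partners and targets gave 2 rises and 1 fall of 18 tested, with a median of 0.19. All 3 were near the detection level. Rarb, a retinoic acid receptor and target, gave 70.1, 127 and 216 against 81.4, 88.0 and 29.9, and Stra8, a retinoid target of germ cells, 64.8, 103 and 219.7 against 60.3, 49.6 and 35.9. The log2 differences of Rarb (1.05, limma adjusted p = 0.0103) and Stra8 (1.22, limma adjusted p = 0.00151) fell under 2-fold after the centring by gene size, at 0.82 and 0.99, and Rarb also without promyelocyte replicate 3 (0.55) or leukemia 9509 (0.99). Stra8 turned to -0.19 with all of its probesets entered. Tgm2, a transglutaminase induced by retinoids, gave 66.5, 80.2 and 131 against 186, 145 and 214, a fall at the 2-fold limit (SE of the log2 difference 0.21, limma adjusted p = 0.00113). That call was lost without promyelocyte replicate 1 (-0.98) or 3 (-0.87) or any of 9 leukemias, 26, 31, 36, 9495, 9504, 9514, 9520, 9523 and 9529 (-0.97 to -0.999), and the difference turned to 0.29 with all of its probesets entered. Of 14 genes of the Bcl2 family 1 was called, Bcl2 itself. It was lower at a log2 difference of -1.03 (SE 0.27, limma adjusted p = 0.00415). The call was lost without promyelocyte replicate 3 (-0.82) or any of 4 leukemias (9492, 26, 9520 and 9500, -0.97 to -0.999). The brightest probeset (-0.73), an offset of 50 before the log (-0.92) and a second quantile normalization (-0.97) lost it too. Of 19 leukocyte integrins and adhesion genes, Itga6 and Itgb1 fell, at log2 differences of -1.11 and -1.38. Itga6 was lost with an offset of 50 before the log (-0.91) and Itgb1 with the brightest probeset (-0.13). Of 23 genes of the Notch pathway 1, the feedback inhibitor Nrarp, was called higher (1.31), where 4.43% of all genes were. Its call was lost without promyelocyte replicate 1 (1.02) or 3 (1.11) and after the centring by gene size (1.06). It was also lost without the filter on low values (0.17) and without leukemias 9509 and 9514 (1.20).

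Genes known from mouse and human APL gave 4 falls and 0 rises of 17 tested, with a median of 0.24. Utx (now Kdm6a), the X-linked histone H3 lysine 27 demethylase, varied widely among the leukemias. Its lowest, median and highest values were 22.7, 154 and 314 in the leukemias, and promyelocyte replicates 1 to 3 gave 495, 456 and 499 (log2 difference -2.04, SE 0.60, limma adjusted p = 0.00881), and 21 of 28 probesets were called lower, but the call was lost with the brightest probeset (-1.34). In 4 leukemias, 9500, 9495, 26 and 9520, Utx was at 22.7, 41.0, 41.5 and 48.5, and in the other 11 it was between 119 and 314. The same-run WT promyelocytes gave 287, 215 and 426, and the difference of -1.34 against them did not pass the test (limma adjusted p = 0.146). By the Xist values given below, the mCG-PR promyelocytes were all of the female pattern and the leukemias were mixed. The part of sex in the fall of this X-linked gene was not tested.

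Jak1, the Janus kinase, was even across the leukemias at 335, 409 and 542 and gave 1061, 948 and 1086 in the promyelocytes (log2 difference -1.30, SE 0.13, limma adjusted p = 1.29e-06). Of its 36 probesets 22 were called lower, though the brightest gave 0.0022. Flt3, a receptor tyrosine kinase of progenitors, gave 61.8, 77.6 and 274 against 397, 181 and 374 (log2 difference -1.83, SE 0.33, limma adjusted p = 2.81e-04), and leukemia 9504 was the only leukemia above 200. Hgf, the ligand of Met, gave 16.2, 58.7 and 335 against 283, 728 and 313 (log2 difference -2.75, SE 0.62, limma adjusted p = 0.00163), with leukemia 33 the highest. Jak1, Flt3 and Hgf were also called lower against the same-run WT promyelocytes, at log2 differences of -1.40, -1.86 and -3.23. Myc, a growth-promoting transcription factor, gave 597, 2032 and 3434 against 1584, 741 and 1637 and was not called (log2 difference 0.53, SE 0.38, limma adjusted p = 0.252). Nras and Ptpn11 were lower by less than 2-fold, with log2 differences of -0.69 and -0.67 (limma adjusted p = 5.05e-04 and 0.00275).

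**Figure D3:**
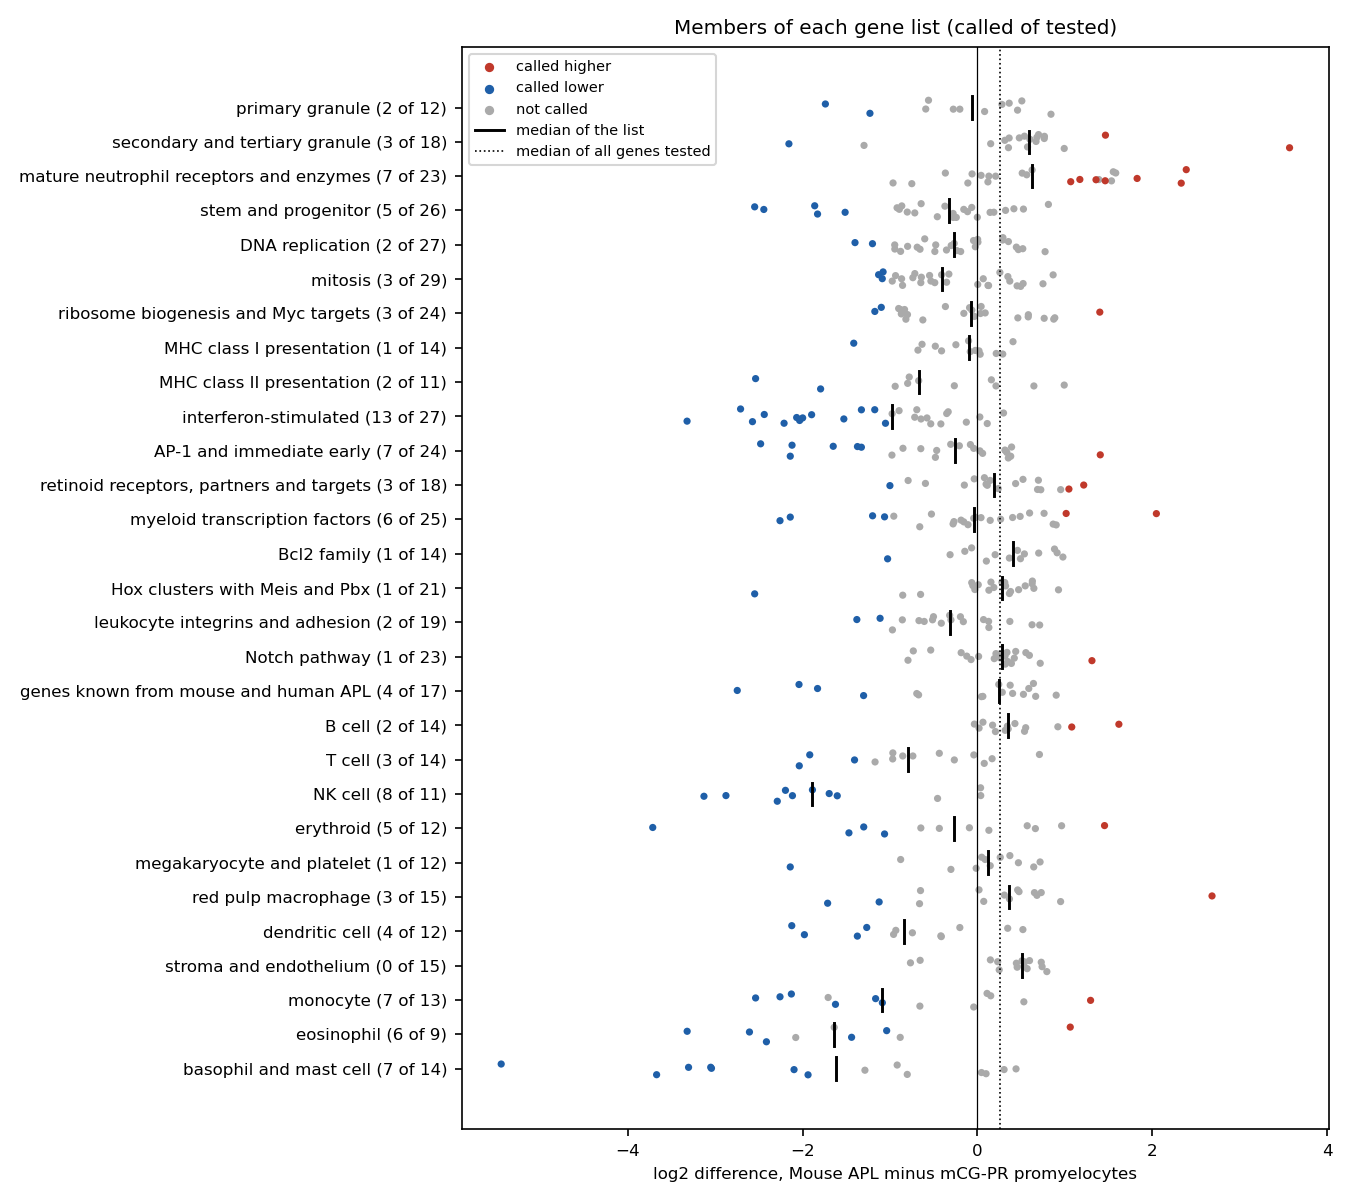
Log2 difference between Mouse APL and mCG-PR promyelocytes (x axis) of each tested member of 29 gene lists (y axis, with the number called of the number tested), 1 point per gene, with the median of the list as a bar and the median of all genes tested, 0.26, as a dotted line. Interferon-stimulated genes (13 of 27 lower) and the markers of NK cells (8 of 11 lower) hold the most falls, and the largest number of rises, 7 of 23, is among the receptors and enzymes of mature neutrophils.

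Markers of several other blood cells were lower in the leukemias than in the sorted promyelocytes. Of 11 tested NK cell markers 8 fell, and their summed values were 759.6 to 1735 in the leukemias, 1773 to 4281 in the mCG-PR promyelocytes and 2924 to 4705 in the same-run WT promyelocytes. Ncr1, Klrb1c, Klrd1, Klrg1 and Klrk1 were among 8 markers under 200 in every leukemia. Of 14 markers of basophils and mast cells 7 fell, with sums of 2341 to 8791, 10110 to 15310 and 12920 to 19270. Of 9 eosinophil markers 5 fell and 1, Siglec5, rose (1336 to 10860, 7768 to 15840 and 9480 to 22040), and of 12 dendritic cell markers 4 fell (1707 to 3084, 3817 to 4095 and 4528 to 5466). Of 13 monocyte markers 6 fell and 1, Cd14, rose (2538 to 5030, 7429 to 9479 and 4238 to 5207). The rises of Siglec5 (1.06) and Cd14 (1.29) were lost after the centring by gene size, at 0.83 and 1.04. Siglec5 was also lost without promyelocyte replicate 1 (0.75) or 3 (0.79), and Cd14 without any of the 3 promyelocyte samples (1.09 to 1.56) or any of 11 leukemias, 26, 29, 31, 33, 9495, 9500, 9504, 9508, 9520, 9523 and 9529 (1.21 to 1.30). Under 200 in every leukemia were 5 of the 14 basophil and mast cell markers, among them Fcer1a, Ms4a2 and Cd200r3. So were 2 of the 9 eosinophil markers, among them Ccr3, and 4 of the 12 dendritic cell markers, among them Siglech and Clec9a. Of the 13 monocyte markers 5 were, among them Cx3cr1, whose call was lost without promyelocyte replicate 3 (-0.99). The remaining markers of each list reached 200 in at least 1 leukemia. The part of such cells in the falls of Fcer1a, Ms4a2, Prss34, Cd200r3, Ear6, Klrk1, Gzmb, Irf8 and Ctss was not tested.

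Erythroid markers depended on the reference. Of 12 tested, 4 fell and 1 rose, and their sums were 2429 to 7618 in the leukemias, 2136 to 7201 in the mCG-PR promyelocytes and 14040 to 16430 in the same-run WT promyelocytes. Car1, carbonic anhydrase 1, gave 23, 103 and 336 in the leukemias against 2275, 321 and 2701 and 2809.6, 4048 and 2759 (log2 difference -3.71, SE 0.69, limma adjusted p = 3.86e-04). Hbb-b1, a beta globin read by 1 probeset, gave 1179, 2512 and 5159.5 against 1381, 312 and 1537 and 4872, 5126 and 5725, and its rise of 1.45 (limma adjusted p = 0.0102) was lost without promyelocyte replicate 2, at 0.71. Of 14 T cell markers 3 fell (Cd3e, Cd3g and Cd28), with sums of 2791 to 5240, 3635 to 6874 and 6255 to 10930. Promyelocyte replicate 2 held less of the T cell marker Cd3g (1182, 224 and 1249) and more of the eosinophil marker Ccr3 (56.6, 693 and 173) than the other 2.

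Of 14 B cell markers 2 rose and 0 fell, and their sums were 2185 to 4750 in the leukemias and 2163 to 2447 in the mCG-PR promyelocytes, with leukemia 9509 the highest. The same-run WT promyelocytes gave 2642 to 3135, and against them 0 of the 14 were called by limma. Ms4a1, which encodes CD20, gave 30.7, 112 and 442 against 42.8, 32.0 and 38.8 (log2 difference 1.62, SE 0.50, limma adjusted p = 0.0119), a call that was lost without promyelocyte replicate 2 (1.5). Cr2, a complement receptor, rose by 1.08 (SE 0.26, limma adjusted p = 0.00247) and was lost without promyelocyte replicate 2 (0.94) or leukemia 9509 (0.998). Its call was also lost with the brightest probeset (0.34). An offset of 50 before the log lost both calls, at 0.99 for Ms4a1 and 0.74 for Cr2. Of 15 markers of red pulp macrophages 1 rose, Vcam1, and 2 fell, Spic and Mrc1, which encode a factor and a receptor of these macrophages and were under 200 in every leukemia. The call of Spic was lost without promyelocyte replicate 1 (-1.07) or 3 (-0.59). The sums of the list were 2912 to 5982 against 2513 to 3401 in the mCG-PR promyelocytes and 3209 to 3375 in the same-run WT promyelocytes. Of 15 markers of stroma and endothelium 0 were called in either direction by limma, while 8 had a limma adjusted p under 0.05 at less than 2-fold and the sums did not overlap, at 2409 to 3613 against 2204 to 2398. The same-run WT promyelocytes gave 3331 to 4138 for that list. Of 12 markers of megakaryocytes and platelets 1 fell, Pf4, platelet factor 4, at 39.0, 56.9 and 82.4 against 515, 57.8 and 512, with sums of 2103 to 2744, 2220.0 to 2750.0 and 2651 to 3419. The call of Pf4 was lost with a filter of 200 in at least 3 arrays (-0.30), and that of Mrc1 with the brightest probeset (-0.73). The part of spleen cells in the rise of Vcam1 was not tested.

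Against the 3 WT promyelocyte samples of the leukemias' own array run, 492 genes (3.06%) were called higher in the leukemias and 450 (2.8%) lower. Those WT cells lacked the fusion, so leukemia, genotype, tissue, age and sorting cannot be told apart in it. It shares the 15 leukemias with the main one, and the values of the named genes are given side by side for that reason. Within the WT promyelocytes, samples of the later runs (replicates 4 to 6) differed from replicates 1 to 3 in 5 genes called higher (0.0311%) and 11 lower (0.0684%). In that limma fit, 2546 of the 16088 genes had an unadjusted p under 0.05. The arrays of the mCG-PR promyelocytes (19266 to 19268) lay outside both sets, so this split does not measure the effect of their run. Without replicate 4, whose array number (17256) stood apart from those of replicates 5 and 6 (17468 and 17469), 40 were called. Of the 3 same-run samples, replicate 1 was closest to the leukemias by the measure of gene size, at -0.75, and without it 1234 genes were called in place of 942.

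The leukemias were not uniform. A gene's SD over the 15 leukemias had a median of 0.28 on the log2 scale, against 0.18 over the 3 mCG-PR promyelocytes. The part of the unequal group sizes in this gap was not tested. The largest SD, 2.46, was that of Penk1, the precursor of enkephalin peptides, which ran from 35.4 in leukemia 9523 to 4945 in 9504 and was at most 58.8 in the promyelocytes. Penk1 passed 200 in 10 leukemias: 9504, 26, 9520, 9495, 9508, 36, 33, 9500, 29 and 9492. Postn, the matrix protein periostin, passed 200 in 7: 9523, 9492, 9509, 29, 9529, 31 and 33. A630052E07Rik passed it in 5, 29, 9509, 9523, 9529 and 9492, which are the 5 highest for Postn as well. Gal, the peptide galanin, passed it in 7, 36, 9520, 9504, 9495, 9508, 26 and 9500, each of which was among those above 200 for Penk1. Penk1 and Gal were called higher in the leukemias (log2 differences 3.46 and 2.79, limma adjusted p = 0.0344 and 0.0432), but not after the centring by gene size (3.21 and 2.54, limma adjusted p = 0.061 and 0.0778). The call of Penk1 was lost on leaving out any of the 3 promyelocyte samples (3.33 to 3.58), and that of Gal on leaving out any of them (2.60 to 2.98) or any of the 7 leukemias above 200 (2.59 to 2.71). Postn was not called, but was without leukemia 9520 (2.97). Both pairs were picked after their values were seen, and no test was made of them.

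Other genes were high in fewer leukemias or spread widely over them. Ly6k, a cell-surface protein of the Ly6 family, had a median of 119.5 but reached 2549 to 3649 in leukemias 36, 9509, 9504 and 9508. Nov, a matricellular protein, passed 200 in 4, 36 (2571), 9520 (1912), 9504 (797) and 9508 (719.9), and was at most 38.3 in the promyelocytes. Ctla2b, a protease inhibitor, reached 1756 in leukemia 9529 and had a median of 47.4, and without that leukemia it was called lower (-2.43). Tceal8, a gene of the transcription elongation factor A-like family, was spread from 15.2 in 9523 to 901 in 9514, whereas the promyelocytes held 602 to 919.5. Prg3, an eosinophil granule protein, ran from 25.9 in leukemia 36 to 2386 in 33. Ly6g, the antigen of the sorting gate, ran from 27.1 in leukemia 33 to 2924 in 9509. It was 122, 42.3 and 136 in the promyelocytes, all under 200, although the gate took Gr1 intermediate cells (log2 difference 1.58, SE 1.15, limma adjusted p = 0.257). Csf1r, which encodes the CD115 that the gate excluded, was called lower in the leukemias. Its call was lost without promyelocyte replicate 1 (-0.86) or 3 (-0.82). It was also lost with the brightest probeset (-0.71) and with an offset of 50 before the log (-0.88).

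**Figure D4:**
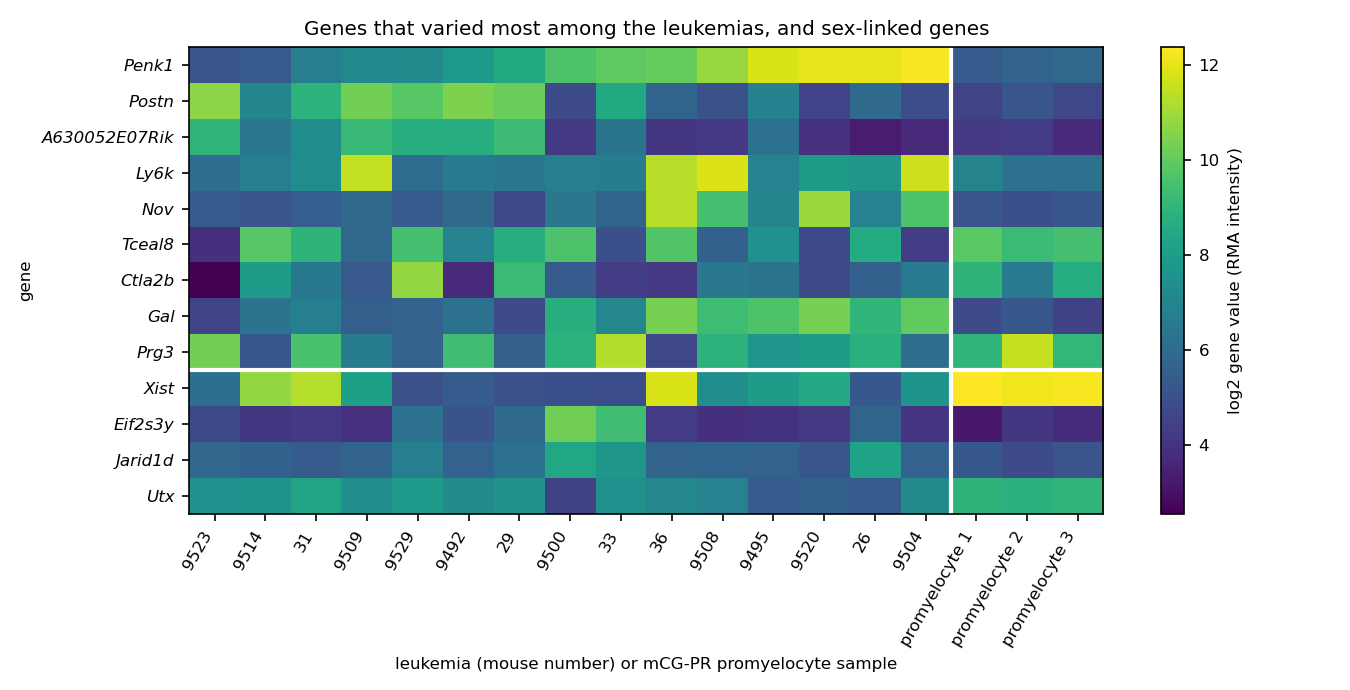
Log2 gene values (colour) of the genes with the largest SD among the leukemias and of 4 sex-linked genes (rows) in the 15 leukemias, ordered by Penk1, and the 3 mCG-PR promyelocyte samples (columns). Penk1 runs from 35.4 to 4945 across the leukemias, Postn from 23.1 to 1628, and Utx from 22.7 to 314.

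The sex of the animals was not given in the sources used here, and sex-linked genes differed between samples. Xist, which is made from the inactive X of female cells, was 5292, 4595 and 4944 in the mCG-PR promyelocytes, so that all 3 were of the female pattern. In the leukemias it was highest in 36 (3590.0), 31 (2515) and 9514 (1749). It was between 165 and 359 in 9508, 9504, 9495, 9509 and 9520, and at most 70.0 in the other 7. The Y-linked Eif2s3y was at 1206 in leukemia 9500 and 649.9 in 33, and at most 75.0 in the other 13. Leukemias 26, 29, 9492, 9523 and 9529 were therefore low in both Xist and Eif2s3y, although Jarid1d (now Kdm5d), also Y-linked, was 300.0 in leukemia 26, beside 349 in 9500 and 214 in 33. By contrast, the WT promyelocytes of the same run split cleanly, with Xist at 3011, 41.5 and 3182 and Eif2s3y at 22.2, 826 and 12.5 in replicates 1 to 3. The fall of Xist (log2 difference -4.93, SE 1.29, limma adjusted p = 0.00454) was measured between samples of unlike sex-linked pattern, and against the same-run WT promyelocytes its difference of -2.19 did not pass the test (limma adjusted p = 0.371).

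The median level of the genes of some chromosomes was shifted in some leukemias. The position of the genes along a chromosome was not examined. For each leukemia, the median level of the genes of a chromosome was taken relative to the median of the 15 leukemias and of its other chromosomes. The calculation used 10521 genes that reached 200 in at least 8 leukemias. The 378 genes of chromosome 19 were lower in 5 leukemias, 9523, 9492, 9514, 31 and 9509, by a median log2 of -0.24 to -0.20, whereas the other 10 lay between -0.02 and 0.14. In the 5, 58.7% to 78.0% of the genes of chromosome 19 were below the leukemias' median, against 38.7% to 51.4% of the genes of their other chromosomes. In leukemia 9529 both shares were high, at 65.3% and 60.8%. Leukemia 9492 also held the highest chromosome 16 (332 genes, 0.25, with 19.9% below the median against 40.7% on its other chromosomes), leukemia 9504 the highest chromosome 5 (0.18), and 9509, 9523 and 31 the highest chromosome 6 (0.17, 0.15 and 0.13). Leukemias 33 and 9504 held the highest chromosome 10 (0.14 and 0.13). Chromosome 15, which carries Myc, ran from -0.12 in leukemia 31 to 0.12 in 26 (413 genes). When each sample was set against the mean of the others of its group, the autosomes lay within -0.26 to 0.25 in the leukemias, -0.03 to 0.03 in the 3 mCG-PR promyelocytes and -0.06 to 0.09 in WT promyelocytes 4 to 6. After the centring by gene size the chromosome 19 values of the 5 leukemias were -0.26 to -0.18. These are expression levels, and DNA copy number was not analysed here.

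**Figure D5:**
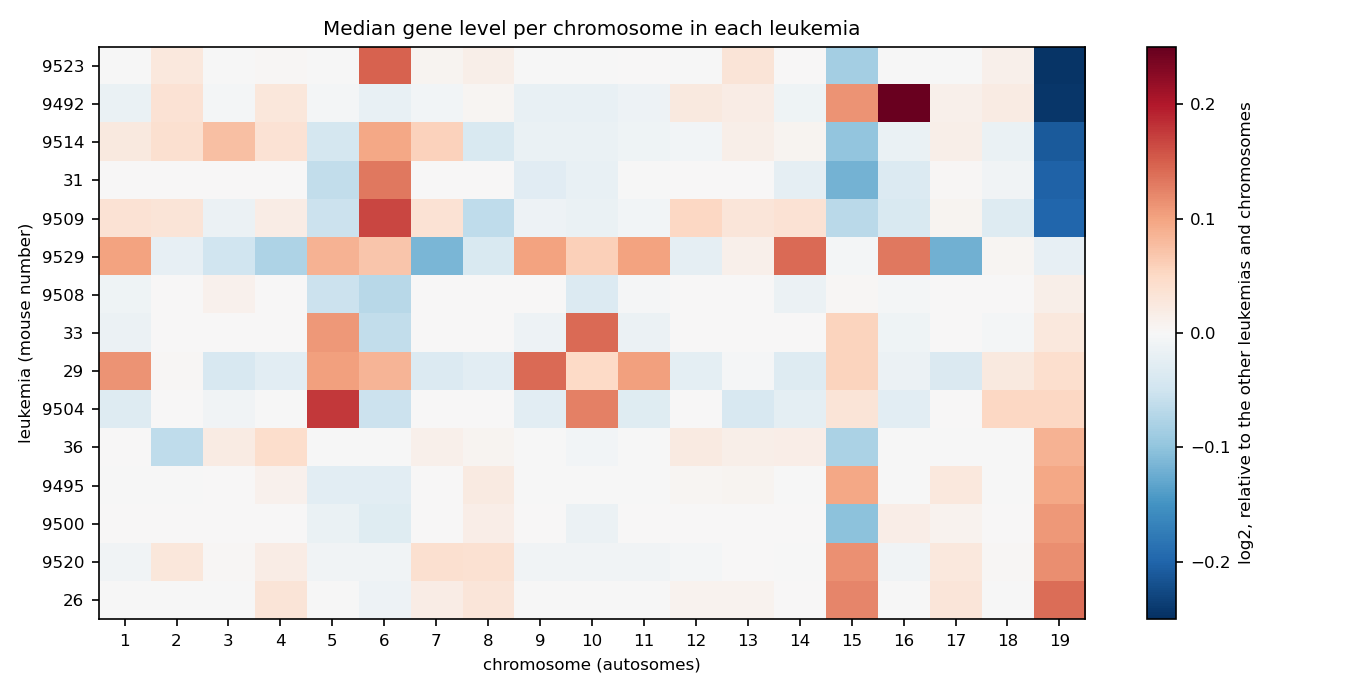
Median log2 level of the genes of each autosome (columns) in each leukemia (rows, ordered by chromosome 19), relative to the median over the 15 leukemias and over the chromosomes of that leukemia. Chromosome 19 is at -0.24 to -0.20 in the top 5 rows, and chromosome 16 is at 0.25 in leukemia 9492.

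Age at leukemia, from 238 to 553 days, gave no called gene. In a limma fit of gene value on age over the 15 leukemias, 0 of 16088 genes had an adjusted p under 0.05 (smallest 0.0641), while 2771 (17.2%) had an unadjusted p under 0.05. The count depended on single leukemias. Without leukemia 9509, 381 genes had an adjusted p under 0.05, and without 9504, 19 had. Without 9514 alone, the oldest mouse, 1 had. Without both 9509 and 9514 also 1 had, so the 381 depended on 9514 being kept.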

How the data were processed

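Expression was measured on Mouse Exon 1.0 ST arrays in 15 leukemias, 3 mCG-PR promyelocyte samples and, as a second reference, 6 WT promyelocyte samples. The deposited values were linear intensities that the authors had made with RMA (background correction, quantile normalization and median polish), with Partek 6.6 and the mm9 build named in the submitters' processing notes. No read depth applies, and the number of arrays limits the precision. Of 451804 probesets, 259411 were assigned to 1 gene symbol, 1897 to several and 190496 to none, by the platform annotation, and only the first were used.

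Log2 intensities of probesets of at least 200 in 1 or more of the 18 arrays were fitted with limma 3.58.1 in R 4.3.3, Mouse APL minus mCG-PR promyelocytes with no covariate, and likewise the median of each gene's tested probesets. Benjamini-Hochberg adjustment ran over all genes or probesets tested, and the scripts were tested on simulated data. A bound ("at least") is the mean log2 value of the brighter group set against 200, as a fold, where every sample of the dimmer group was below 200. The leukemias were separate mice. The study's methods describe marrow taken from single mice, so the promyelocyte samples were treated as separate animals.

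Genes were named by a rule: the 15 largest rises and 15 largest falls with at least 3 tested probesets and no overlap between groups, up to 4 called members of each gene list, the 10 genes with the largest SD among the leukemias, and check genes (Ctsg, Rara, Pml, sex-linked genes and genes of the sorting gate). Members, lists and rule were chosen with earlier results of these data known. Alternatives changed the filter, normalization, an offset of 50, the probeset standing for a gene, the samples in the fit, array weights, an analysis of variance at the methods' threshold and each sample in turn. The centring by gene size and the leaving out of leukemias 9509 and 9514 were added after seeing the data. Cell numbers, DNA and sequence were not analysed here.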

Additional observations from a re-analysis of the deposited data

How the results depend on the processing

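The reported fit called 1444 genes and 20950 probesets. On leaving out each of the 18 samples in turn, the totals were 1280 to 1618 genes and 17924 to 21756 probesets. With an offset of 50 before the log, 833 genes were called. With the probeset of the highest mean standing for a gene, 2180 were, 75.0% of them higher against 49.4% in the reported fit. Of the genes called without a filter on low values 39.2% were higher, and after the centring by gene size 26.7%. Without the filter 32657 probesets were called, and an analysis of variance at the methods' threshold, an unadjusted p under 0.001, run here on linear intensities because the methods do not give the scale, called 14413, 13.6% of them higher against 30.8%, or 18936 after Benjamini-Hochberg. Against the same-run WT promyelocytes, 658 to 1234 genes were called on leaving out each WT sample, against 942. Between the WT array runs 40 were called without replicate 4, against 16. With age, against 0 genes, 1 was called without the oldest leukemia, 3 after the centring by gene size, 1 without leukemias 9509 and 9514, and 0 to 381 on leaving out each leukemia.

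Among called genes named in the text, the log2 difference changed sign for Stra8 (-0.19) and Tgm2 (0.29) without the filter, and for Jak1 (0.0022), H2-DMa (0.52), Runx1 (0.10) and Top2a (0.42) with the probeset of the highest mean. Among those not called, it changed sign for Rara (-0.30) and Ela2 (0.34) with that probeset, and for Ela2 without promyelocyte replicate 1 or 3 (both 0.01). The cause was not tested. Over 146 named genes, 3850 alternative values kept the direction and the side of the threshold, 192 kept the direction but lost the call, 20 gained one, 6 changed sign among called genes and 12 among genes not called. Not every such loss or gain is named beside its gene, so a call given without one need not have held throughout. No paired analysis was possible because the leukemias carry no replicate number that the promyelocytes share.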
